A study of Mus musculus with 4 samples.

Results

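The miR-99, miR-100 and miR-125 families were followed in small RNA from exosome-enriched preparations of astrocyte culture medium. The members were every mature miRNA of the deposited table that derives from the hairpins mmu-miR-99a, mmu-miR-99b, mmu-miR-100, mmu-miR-125a or mmu-miR-125b, whichever arm it comes from, and 8 of the 389 listed miRNAs met this definition. They comprised 5 arms from the 5′ side of the hairpin (mmu-miR-99a-5p, miR-99b-5p, miR-100-5p, miR-125a-5p and miR-125b-5p) and 3 arms from the 3′ side (miR-99b-3p, miR-125a-3p and miR-125b-1-3p). C8-D1A is an established wild-type mouse astrocyte line. The control group (2 libraries) was kept at 37 °C for 8 h according to the labels, whereas the cell culture methods give 2 h. The heat stress group (2 libraries) was held at 42 °C for 2 h and rewarmed at 37 °C for 6 h. All cells were cultured with fetal bovine serum, vesicles were pelleted from the supernatant by ultracentrifugation, and the sources used here do not state whether the serum had been depleted of its own vesicles. The 2 libraries of a group are described as biological replicates, and how their cultures were separated is not given.

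A miRNA recognises its targets mainly through the seed, bases 2 to 8 from its 5′ end, so miRNAs that share a seed can act on overlapping sets of transcripts. MiR-125 is the vertebrate counterpart of lin-4, the founding miRNA of Caenorhabditis elegans, and is abundant in the nervous system, where it is known as a regulator of Lin28 and of glial proliferation. The miR-99/100 family is among the oldest in animals and is best known for repressing the mTOR kinase. In mammals both families lie beside let-7 genes in conserved clusters.

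The mature sequences show why the 5p arms form a pair of seed groups. They are printed 5′ to 3′ from RefSeq (GRCm38.p6), with the seed in capitals.
miR-99a-5p: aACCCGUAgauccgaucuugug
miR-100-5p: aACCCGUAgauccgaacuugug
miR-99b-5p: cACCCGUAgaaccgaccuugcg
miR-125a-5p: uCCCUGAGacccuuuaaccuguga
miR-125b-5p: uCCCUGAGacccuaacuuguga
miR-99b-3p: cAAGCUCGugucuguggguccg
miR-125a-3p: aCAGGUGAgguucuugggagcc
miR-125b-1-3p: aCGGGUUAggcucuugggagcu

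MiR-99a-5p, miR-99b-5p and miR-100-5p shared the seed ACCCGUA, and miR-125a-5p and miR-125b-5p shared CCCUGAG. The 3p arms had 3 different seeds. MiR-100-5p and miR-99a-5p were 95.5% identical and differed by a single substitution, A16U, written with the base of miR-100-5p first and positions counted from 1 at the 5′ end. MiR-100-5p and miR-99b-5p differed by 4 substitutions (A1C, U11A, A16C and U21C). MiR-125a-5p, at 24 bases, was longer than miR-125b-5p, at 22 bases, and their first 13 bases were identical. The number of mismatches allowed when reads were assigned is not given in the sources used here, so reads carrying an error at base 16 could have been exchanged between miR-99a-5p and miR-100-5p. Among the 325 listed miRNAs that had a RefSeq sequence, the only other one with either seed was miR-351-5p (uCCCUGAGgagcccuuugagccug), with normalized values of 37.9 and 9.39 in the control libraries and 23.7 and 27.0 after heat stress.

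The hairpins of Mir99a, Mir100, Mir125b-1 and Mir125a below show which of their arms had a row in the table, and those of Mir99b and Mir125b-2 are not printed. Listed arms are in capitals, and the RNA is printed 5′ to 3′ from RefSeq (GRCm38.p6, plus strand).
Mir99a: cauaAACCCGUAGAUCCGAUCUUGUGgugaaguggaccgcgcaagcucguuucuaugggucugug
Mir100: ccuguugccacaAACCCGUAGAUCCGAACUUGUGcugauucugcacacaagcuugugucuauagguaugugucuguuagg
Mir125b-1: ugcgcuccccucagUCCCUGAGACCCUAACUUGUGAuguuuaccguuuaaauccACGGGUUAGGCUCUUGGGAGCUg
Mir125a: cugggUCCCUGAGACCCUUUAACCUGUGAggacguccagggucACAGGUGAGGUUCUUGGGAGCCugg

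RefSeq names 11 distinct mature arms for the 6 hairpin genes, and 8 had a row. The other 3 (miR-99a-3p, miR-100-3p and miR-125b-2-3p) had no row in the table analysed here. Positions are those of GENCODE M21 on GRCm38, and the build behind the deposited values is not given. The genes formed 3 clusters on the plus strand. Mir99a (chromosome 16, 77598936 to 77599000), Mirlet7c-1 and Mir125b-2 (77646273 to 77646343) lay within introns of the long noncoding RNA gene Mir99ahg and spanned 47408 bases. Mir100 (chromosome 9, 41531425 to 41531504), Mirlet7a-2 and Mir125b-1 (41581926 to 41582002) lay within introns of 3110039I08Rik and spanned 50578 bases. Mir99b (chromosome 17, 17830188 to 17830257), Mirlet7e and Mir125a (17830812 to 17830879) lay within Spaca6 and spanned 692 bases, and Mir125a overlapped an annotated Spaca6 exon. MiR-125b-5p has the same sequence at Mir125b-1 and Mir125b-2, so its value sums the output of both loci, whereas miR-125b-1-3p comes from the chromosome 9 locus alone.

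The deposited values are normalized by the authors with 1 factor per library. If the smallest step between values is worth 1 read, the libraries held 43675 to 100933 reads on miRNAs, and the 8 members together had from 5.89% to 12.2% of the summed values of a library. Expression of the markers of other cell types was described by their summed values. The neuronal list (3 of 4 listed) summed to 541 to 576 in the control libraries and 415 to 486 after heat stress, almost all of it miR-128-3p, while miR-124-3p, which defines neurons, was at 4.06 or less. The oligodendrocyte list (1 of 3 listed) reached 1.58 at most. The blood-lineage list (4 of 5 listed), mostly miR-486a-5p, summed to 591 to 975 in the control and 593 to 819 in the heat stress libraries. The muscle list (2 of 3 listed) summed to 39.3 and 108 in the control and 22.1 and 27.0 in the heat stress libraries, without overlap. Of its members, miR-1a-3p was called lower by the threshold used below (24.4 and 73.5 against 3.16 and 0, log2 change -4.41, adjusted p = 0.513 from limma), and miR-206-3p was at 14.9 and 34.4 against 19.0 and 27.0. No other marker on these lists was called. The liver miRNA miR-122-5p ranged from 20.5 to 90.8. The astrocyte list (2 of 3 listed) summed to between 286 and 359 and was almost entirely miR-143-3p, which is also abundant in mesenchymal cells. The part of these other sources in the values below was not tested. In preparations of this kind, fewer vesicles and less miRNA per vesicle cannot be told apart.

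All 8 members were above 0 in every library, and all 8 passed the filter of a mean value of at least 1. MiR-125b-5p was the most abundant member, with a normalized value of 2350 ± 686 (SD over the 4 libraries), and it ranked between 4 and 8 among all miRNAs in each library. MiR-99b-5p (991 ± 296), miR-125a-5p (952 ± 143) and miR-100-5p (882 ± 277) followed, and their order differed between libraries, so they were not separated by level. MiR-99a-5p (521 ± 35.9) came next in every library. The 3p arms were lower. MiR-125b-1-3p (195 ± 34.7) and miR-99b-3p (160 ± 44.3) exchanged places between libraries, and miR-125a-3p (38.1 ± 30.2) was lowest in every library. Levels of different miRNAs are compared as reads per mature miRNA, and ligation efficiency, which differs between sequences, was not measured.

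**Figure D1:**
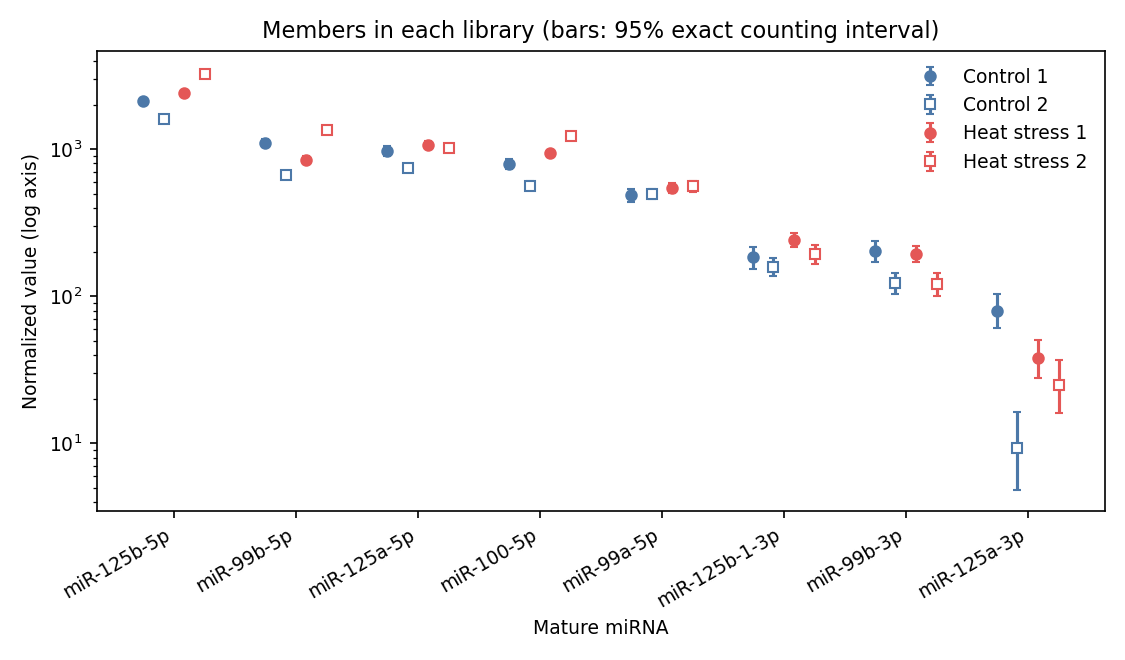
Normalized value of each member (log axis) in the 2 control libraries (blue) and the 2 heat stress libraries (red), with filled circles for replicate 1 and open squares for replicate 2. Bars are 95% exact Poisson intervals, which assume that a step is worth 1 read and cover counting error only. The heat stress points lie above both control points in 5 members, with the groups closest for miR-125a-5p and miR-125b-1-3p.

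MiR-125b-5p had values of 2134 and 1612 in control libraries 1 and 2 and of 2402 and 3254 in heat stress libraries 1 and 2. Both heat stress libraries lay above both controls, and heat stress library 2 was the highest. The group values were 1873 ± 369 (SD, n = 2) and 2828 ± 603 (SD, n = 2), a ratio of means of 1.51. MiR-125a-5p, which differs from miR-125b-5p only after the first 13 bases, was at 971 and 747 in the control and at 1072 and 1017 in the heat stress libraries. Its groups also did not overlap, and its ratio of means was 1.22. The counting intervals of control library 1 (901 to 1045) and of both heat stress libraries (1016 to 1131 and 955 to 1081) overlapped. Whether the separation of the groups exceeds counting error was not tested, and overlap of single intervals does not settle it.

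In the miR-99/100 group, miR-100-5p had the widest difference between groups. It was at 795 and 566 in the control and at 938 and 1228 in the heat stress libraries, without overlap, and the group values were 681 ± 162 and 1083 ± 205 (SD, n = 2), a ratio of means of 1.59. MiR-99a-5p was at 486 and 494 in the control and at 544 and 559 in the heat stress libraries. These groups did not overlap either, but the ratio of means was 1.12. The 95% counting intervals of both control libraries (437 to 539 and 456 to 534) overlapped those of both heat stress libraries (504 to 586 and 513 to 607). Such overlap does not settle whether the difference between its groups exceeds counting error, which was not tested. MiR-99b-5p was at 1103 and 668 in the control and at 847 and 1344 in the heat stress libraries, so its groups overlapped. The replicates of miR-99b-5p differed by 1.65-fold in the control and 1.59-fold in the heat stress group, more than its ratio of means of 1.24.

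The replicates agreed very differently from member to member. MiR-99a-5p had a within-group SD of 0.022 on the log2 scale, the smallest among the 99 miRNAs with a value of at least 10 in every library. This is less than the 0.076 that counting alone gives for its least covered library. The within-group SD was 0.19 for miR-125a-5p and miR-125b-1-3p, 0.30 for miR-125b-5p, 0.31 for miR-100-5p and 0.49 for both arms of miR-99b. It was 1.51 for miR-125a-3p. These SDs hold for the authors' scaling. With values scaled to equal library totals, the within-group SD of miR-99a-5p was 0.24. Those of the other members then ran from 0.27 (miR-125b-1-3p) to 1.64 (miR-125a-3p).

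The 3p arms, which are the less abundant products of their hairpins, did not share a pattern. MiR-125b-1-3p was at 184 and 159 in the control and at 242 and 193 in the heat stress libraries. Its groups did not overlap, and its ratio of means was 1.27. The counting interval of control library 1 (155 to 218) overlapped those of both heat stress libraries (215 to 270 and 167 to 222). That of control library 2 (138 to 182) overlapped that of heat stress library 2 only. MiR-99b-3p was at 203 and 123 in the control and at 194 and 121 in the heat stress libraries, so the replicates of each group lay further apart than the groups, and the group means were 163 ± 56.8 and 157 ± 51.3 (SD, n = 2). MiR-125a-3p was at 79.9 and 9.39 in the control and at 37.9 and 25.0 in the heat stress libraries. At 1 read per step the controls held 59 and 12 reads, and they bracketed both heat stress libraries. The ratio of its means was 0.705, while its difference of mean log2 values was positive (0.13), so it had no resolved direction.

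The change with heat stress was tested with limma on log2(value + 1), fitted to all 313 miRNAs whose mean value reached 1. A miRNA was called when its change exceeded 2-fold and its unadjusted p was below 0.05, the threshold in the study's methods. None of the 8 members was called in either direction. Over all miRNAs tested, 4.47% were called higher and 2.88% lower. By limma with Benjamini-Hochberg adjustment over all 313 miRNAs, 0 of the 313 passed 0.05, while 23 had an unadjusted p below 0.05 and none of these was a member. MiR-100-5p had the largest log2 change of the members, 0.68 (standard error 0.85, adjusted p = 0.820 from limma). The log2 change of miR-125b-5p was 0.59 (standard error 0.85, adjusted p = 0.873 from limma). Those of the other members ran from -0.045 (miR-99b-3p) to 0.34 (miR-125b-1-3p), with 0.17 for miR-99a-5p, which was 0.069 with values scaled to equal library totals. The median of the 8 members was 0.30, and that of all 313 miRNAs was 0.12.

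These tests were wide, and they do not show that the members stayed the same. The 95% interval of the log2 change ran from -1.52 to 2.88 for miR-100-5p, from -1.60 to 2.79 for miR-125b-5p and from -1.97 to 2.31 for miR-99a-5p, so a 2-fold change in either direction lay inside each. The fit draws the variance of each miRNA towards 1 shared prior value, the same for abundant and rare miRNAs. When the variance prior was allowed to follow the mean, the intervals narrowed to between -0.27 and 1.63 for miR-100-5p, -0.27 and 1.46 for miR-125b-5p and -0.84 and 1.18 for miR-99a-5p, and again 0 members were called. On these intervals a fall of 2-fold was outside the range for all 5 of the 5p arms, while a rise of 2-fold was inside it. Under this prior the standard error was 0.51 for miR-99a-5p and 0.48 for miR-99b-5p, whose within-group SDs were 0.022 and 0.49. The prior was tried on the authors' scaling only, and in the main fit a fall of 2-fold lay inside the interval of each 5p arm. The smallest two-sided p that an exact permutation test allows for 1 miRNA in 2 libraries against 2 is 0.333.

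**Figure D2:**
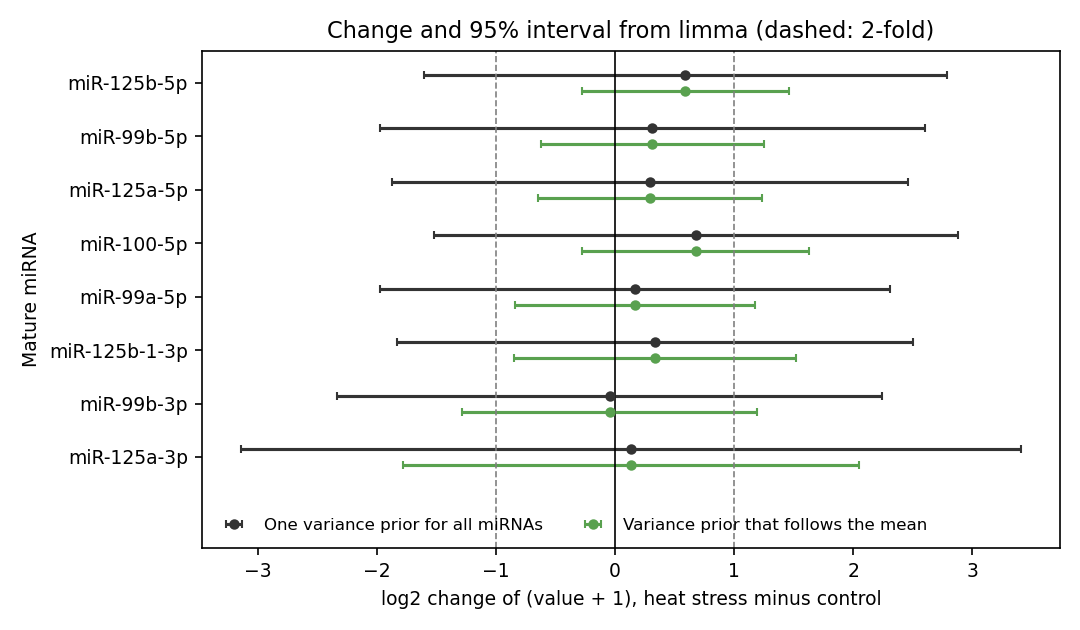
log2 change of each member on the log2(value + 1) scale, heat stress minus control, with 95% intervals from limma under 1 variance prior for all miRNAs (black) and under a prior that follows the mean (green). Dashed lines mark 2-fold, and every interval includes 0.

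Both heat stress libraries lay above both control libraries in 5 of the 8 members (miR-99a-5p, miR-100-5p, miR-125a-5p, miR-125b-5p and miR-125b-1-3p) and below them in 0. Over the 313 miRNAs tested, 16.0% had both heat stress libraries above both controls and 11.5% had both below. With values scaled to equal library totals, both heat stress libraries lay above both controls in 0 of the 8 members and in 12.8% of the 313 miRNAs. The members were measured in the same 4 libraries, so they are not independent observations of heat stress. As a share of its library's summed values, miR-125b-5p made up 3.61% and 2.17% in the control and 3.01% and 5.13% in the heat stress libraries. MiR-100-5p made up 1.34% and 0.762% in the control and 1.18% and 1.94% in the heat stress libraries. On this scale control library 1 lay above heat stress library 1 for both, and heat stress library 2 was still the highest.

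Of the sums of the seed groups, only that of miR-125 separated the groups on the authors' scaling. The 5p arms of miR-99a, miR-99b and miR-100 summed to 2384 and 1728 in the control and to 2329 and 3131 in the heat stress libraries, and the groups overlapped. Those of miR-125a and miR-125b summed to 3105 and 2360 in the control and to 3474 and 4271 in the heat stress libraries, without overlap. As shares of the library, the miR-125 sum was 5.25% and 3.17% in the control and 4.36% and 6.74% in the heat stress libraries, and the groups overlapped. The 2 miRNAs with the highest mean values, miR-148a-3p and let-7c-5p, together took 27.1% and 45.6% of the control and 44.3% and 35.0% of the heat stress libraries. The part of these miRNAs in the difference between the scalings was not tested.

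**Figure D3:**
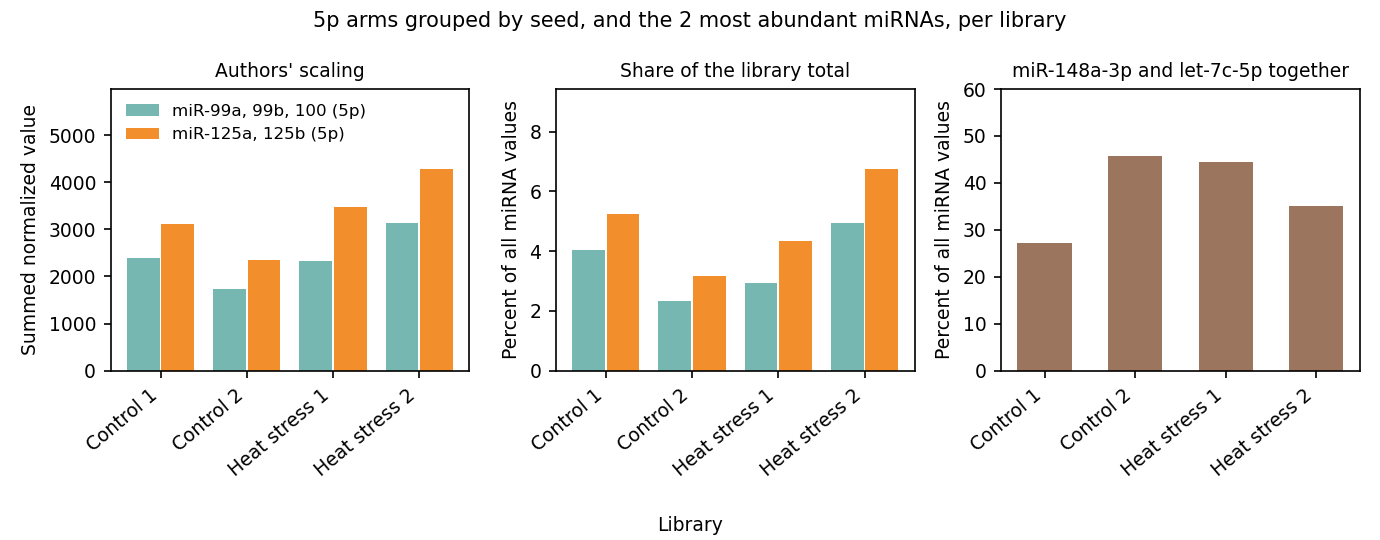
Bars show, per library, the summed normalized value of the 5p arms with each seed (left), the same sums as a percentage of all miRNA values (middle), and the percentage taken by miR-148a-3p and let-7c-5p (right). The miR-125 sum in control library 1 lies below both heat stress libraries on the left and above heat stress library 1 in the middle.

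A ratio between members of 1 library does not depend on the scaling of that library, and such ratios were compared for all 10 pairs of the 5p arms. The steadiest was that of miR-125b-5p to miR-100-5p, whose genes Mir125b-1 and Mir100 share the chromosome 9 cluster. It was 2.68 and 2.85 in the control and 2.56 and 2.65 in the heat stress libraries, a spread of 1.11-fold between the highest and the lowest, although each of these miRNAs varied by at least 2.02-fold between libraries. The root-mean-square distance between their centred log2 profiles over the 4 libraries was 0.055. The nearest miRNA outside the families was miR-320-3p for both, at 0.084 from miR-125b-5p and 0.10 from miR-100-5p, followed by let-7d-5p at 0.15 and 0.16, and then by miR-221-3p at 0.22 from miR-125b-5p and miR-501-3p at 0.22 from miR-100-5p, among 92 candidates with a value of at least 10 in every library. For miR-99a-5p the nearest were miR-10a-5p (0.14), miR-143-3p (0.16) and miR-615-3p (0.17). These distances rest on 4 libraries and carry no test.

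Lying in the same cluster did not go with a steady ratio in general. MiR-99b-5p and miR-125a-5p, whose hairpins lie within 692 bases, had a ratio of 1.14 and 0.894 in the control and of 0.790 and 1.32 in the heat stress libraries. The order of the pair was thus reversed between replicates in each group, and the exact 95% intervals of heat stress library 1 (0.728 to 0.856) and 2 (1.22 to 1.44) lay apart. MiR-125b-5p and miR-99a-5p, which share the chromosome 16 cluster, had ratios of 4.39 and 3.27 in the control and of 4.42 and 5.83 in the heat stress libraries.

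Within a seed group, the balance between paralogs differed between libraries beyond counting error. MiR-125b-5p exceeded miR-125a-5p 2.20-fold and 2.16-fold in the control, 2.24-fold in heat stress library 1 and 3.20-fold in heat stress library 2. The exact 95% interval of heat stress library 2 (2.98 to 3.44) lay above those of the other 3 libraries, which together ran from 2.00 to 2.40. The higher mean of the heat stress group therefore rested on 1 library. The mean log2 ratio was higher by 0.30 after heat stress, and by 0.041 without heat stress library 2. MiR-100-5p exceeded miR-99a-5p 1.64-fold and 1.15-fold in the control and 1.73-fold and 2.20-fold in the heat stress libraries. This ratio was higher in both heat stress libraries, but the interval of control library 1 (1.43 to 1.87) overlapped that of heat stress library 1 (1.57 to 1.90), and control library 2 lay lowest. Its mean log2 ratio was higher by 0.51 after heat stress, and by 0.25 without control library 2. MiR-100-5p made up 33.4% and 32.8% of the miR-99/100 5p sum in the control and 40.3% and 39.2% after heat stress. The intervals of the controls (31.2% to 35.6% and 30.8% to 34.8%) lay below those of the heat stress libraries (38.5% to 42.1% and 37.5% to 41.0%). These intervals cover counting error only, the pairs were looked at with the values known, and no test was run on them.

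**Figure D4:**
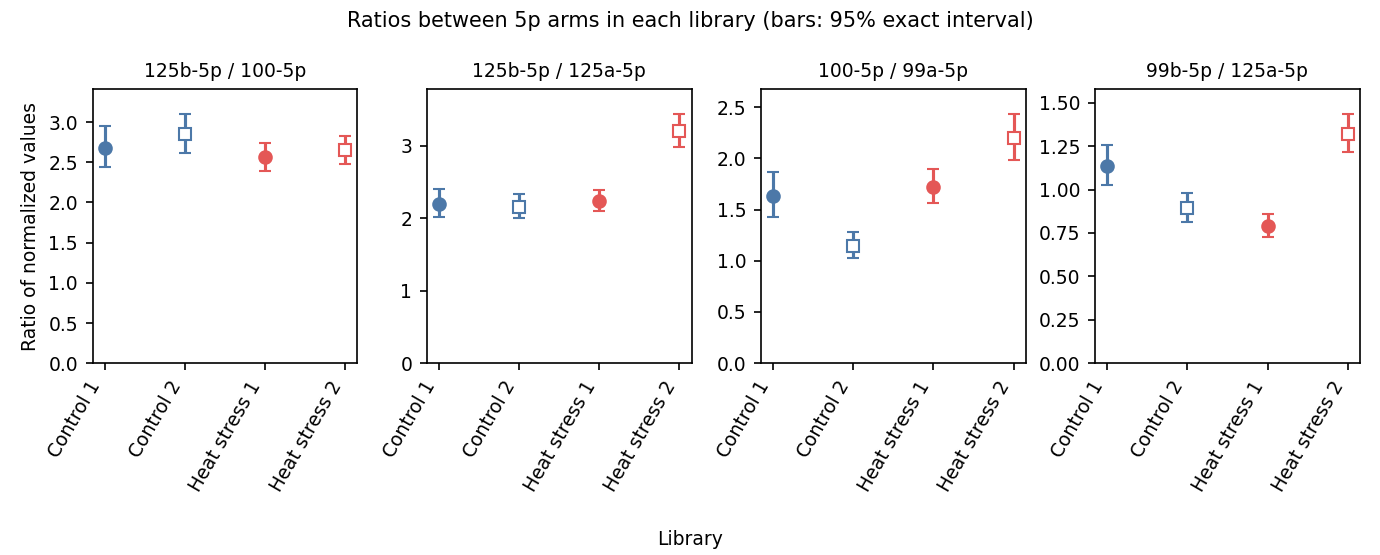
Ratio of normalized values of pairs of 5p arms in each library, control in blue and heat stress in red, with exact binomial 95% intervals for counting error. The ratio of miR-125b-5p to miR-100-5p stays between 2.56 and 2.85, and that of miR-125b-5p to miR-125a-5p is 3.20 in heat stress library 2 against 2.16 to 2.24 in the others.

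The arms of 1 hairpin were also compared within libraries. MiR-125b-5p exceeded miR-125b-1-3p 11.6-fold and 10.2-fold in the control and 9.93-fold and 16.8-fold in the heat stress libraries, and the 5p value can include the output of the chromosome 16 locus. MiR-99b-5p exceeded miR-99b-3p 5.43-fold and 5.44-fold in the control and 4.38-fold and 11.1-fold in the heat stress libraries. In both hairpins the 5p arm was relatively highest in heat stress library 2, and the groups overlapped. The ratio of miR-125a-5p to miR-125a-3p ran from 12.2 in control library 1 to 79.6 in control library 2, so it varied more between the controls than between the groups.

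Of the let-7 arms encoded in the same clusters, 3 of 6 were listed (let-7a-5p, let-7c-5p and let-7e-5p), and 0 of them were called in either direction. Let-7a-5p was at 717 and 1666 in the control and at 843 and 790 in the heat stress libraries, so the control replicates differed more than the groups. Its ratio to miR-100-5p was 0.901 and 2.94 in the control and 0.899 and 0.643 in the heat stress libraries. The listed arm let-7a-1-3p belongs to a further let-7a hairpin, so let-7a-5p need not come from Mirlet7a-2 alone. The ratio of let-7c-5p to miR-99a-5p, whose hairpins lie 656 bases apart, was 8.44 and 21.8 in the control and 21.2 and 11.2 in the heat stress libraries, and let-7c-5p also derives from a further locus.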

How the data were processed

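Small RNA was sequenced from 2 control and 2 heat stress preparations. Per the methods, the authors trimmed adapters, discarded short or poor reads and aligned the remainder to a reference genome by Bowtie, whereas the submitters' processing notes name FastQC and BWA. Genome build and annotation release are not given in the sources used here. The authors deposited 1 normalized signal value per miRNA and library, for 389 miRNAs. The values were whole multiples of 1 step per library, but 2 of the 4 libraries failed the check used for treating them as reads, so no count model was run. The authors' own fold changes and p-values, in the same table and in a second list, were not used.

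Values were fitted as log2(value + 1) with limma (version 3.58.1, in R version 4.3.3) to the 313 miRNAs whose mean value reached 1, on condition alone, and p-values were adjusted by Benjamini-Hochberg. The fit was tested on simulated data. The p-values measure only the spread between these libraries. Adding 1 understates the change of low values. Counting intervals (95%, exact Poisson, or exact binomial for ratios and shares) assume that a step is worth 1 read. Sequences came from RefSeq by miRNA name (325 of 389 matched, all 8 members among them) and positions from GENCODE M21. Plots used matplotlib (version 3.10.9). The members and the lists were chosen with earlier results of these data known. The named miRNAs were all members, the let-7 arms of the clusters, miRNAs with a member's seed, and the 3 nearest profiles of miR-99a-5p, miR-100-5p and miR-125b-5p. Markers of other cell types and the 2 most abundant miRNAs, miR-148a-3p and let-7c-5p, were named besides, the latter pair after their values were seen. The marker lists were written from general knowledge. Alternatives were other pseudocounts, filters, scalings and variance priors, a replicate block, and leaving out each library.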

Additional observations from a re-analysis of the deposited data

How the results depend on the processing

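None of the 8 members was called in any setting. Over all miRNAs, 14 were called higher and 9 lower. There were 6 higher with a mean value of at least 10 and 6 with a mean-dependent variance prior, and 2 lower with a pseudocount of 0.1, 17 with a pseudocount of 10 and 4 with the replicate block (10 higher). With 1 library left out there were 10 to 39 higher and 3 to 27 lower. In these fits the single library left in a group is assumed to vary like the other group, and 38 or 58 miRNAs had no spread at all. By limma with Benjamini-Hochberg adjustment, 35 miRNAs, none of them a member, had an adjusted p under 0.05 without either heat stress library and 0 in every other setting. Why the counts moved was not tested.

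The block changed no call of a member. Same-numbered libraries are not stated to share a batch, and over 313 miRNAs the correlation of their deviations was -0.019. With 2 libraries per group, this correlation cannot show whether same-numbered libraries shared a culture or a batch. With library totals, 0 members in place of 5 had both heat stress libraries above both controls. Over the 313 miRNAs there were 40 in place of 50. The median log2 change went from 0.12 to 0.022 over the 313 miRNAs and from 0.30 to 0.20 over the 8 members.

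Of 96 comparisons of a member's log2 change with its main value, 89 kept its direction and 7 did not. MiR-125a-3p was -0.027 with a pseudocount of 10. With 1 library left out it ranged from -1.35 (without control library 2) to 1.62, miR-99b-3p from -0.41 (without control library 2) to 0.32, and miR-99b-5p from -0.047 (without control library 2) to 0.67. The other 5 members were positive in every setting. With 1 library left out they ranged from 0.15 to 0.19 (miR-99a-5p), 0.43 to 0.92 (miR-100-5p), 0.37 to 0.81 (miR-125b-5p), 0.10 to 0.48 (miR-125a-5p) and 0.17 to 0.50 (miR-125b-1-3p). The lowest values came without control library 2 for miR-100-5p and miR-125a-5p, without heat stress library 2 for miR-99a-5p and miR-125b-5p, and without heat stress library 1 for miR-125b-1-3p. MiR-99a-5p was 0.069 with library totals and 0.11 with totals without the 5 most abundant miRNAs.

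Depth limits mainly miR-125a-3p, with 12 to 59 reads if a step is worth 1 read.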
